A study of Mus musculus with 4 samples.

Results

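Regulatory T cells (Tregs) of tumor-bearing mouse lung were divided by clone size, into cells whose T cell receptor (TCR) recurred in the library and cells whose receptor was seen once. A kept barcode had at least 500 detected genes, under 10% mitochondrial UMIs (unique molecular identifiers, counts of distinct RNA molecules), 1 or 2 productive TCR alpha chains (TRA) and 1 productive beta chain (TRB). A clonotype was the set of kept cells with identical V genes and identical CDR3 nucleotides in all these chains, the CDR3 being the junction that differs most between receptors. Cells were chosen by 2 measured values, a UMI count of at least 1 for Foxp3, the transcription factor that defines Tregs, and the size of the clonotype. Of 7788 tumor-lung barcodes, 7668 passed the quality limits and 5705 were kept, and 896 of these had a Foxp3 UMI, out of 15533 barcodes in the whole series. The expanded side was 268 Foxp3+ cells in 107 clonotypes of 2 or more kept cells, and the single side was 628 Foxp3+ cells whose clonotype held 1 kept cell. Of 1247 Foxp3+ cells that passed the quality limits, 100 had extra chains and 251 lacked a chain, and these are on neither side.

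The mice were C57BL/6. Tumor-bearing animals had received TC1 cells, a transplantable mouse lung epithelial tumor line, through the tail vein 3 weeks earlier, and normal lung came from age-matched mice. Live CD4+ cells were sorted from each tissue, and each suspension gave 1 droplet-based 5′ gene expression library and 1 TCR library. The number of mice in a suspension was not given in the labels, and no sex or age in weeks was given. The series concerns the alarmin IL-33 and its receptor ST2 (encoded by Il1rl1) in Treg accumulation in tumors.

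Tregs restrain immune responses, and most arise in the thymus as cells with receptors for self antigens. A T cell that meets its antigen with costimulation and IL-2 divides, and its daughters inherit the same receptor, so a repeated TCR marks common descent. Activated Tregs leave the naive program of lymph node homing, take up inhibitory and costimulatory receptors, and can settle in tissues such as lung.

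There was 1 tumor library, so no difference between the sides has a replicate check and none was tested. The 95% intervals in parentheses are exact Poisson for CPM (UMI counts scaled to a fixed total per side), exact conditional for ratios and Clopper-Pearson for shares of cells or clonotypes. They cover counting error only, since cells of 1 clone and UMIs of 1 cell are not independent. A clonotype seen once may have unsampled sisters, so clone size here is size among sampled cells. Sampled sisters can also be split, since a cell with an alpha chain missed or added is counted as another clonotype. Over both sides, 30 beta chain sequences were each in more than 1 clonotype, 62 clonotypes in all.

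The largest clones had related receptors, and the CDR3 sequences that show this are printed 5′ to 3′. Clones are numbered by kept cells, and clones 1 (8 cells, all Foxp3+) and 2 (6 cells, all Foxp3+) were the largest in which every kept cell had a Foxp3 UMI. Both used TRAV12-2 (chr14:53616397-53616914, GRCm38.p6) with TRAJ48 and TRBV1 (chr6:40891296-40891885), but different beta J segments, TRBJ1-3 in clone 1 and TRBJ2-5 in clone 2. Capitals mark the bases at which the pair differs, 5 of 45 in the alpha and 5 of 39 in the beta chain.
clone 1 TRA: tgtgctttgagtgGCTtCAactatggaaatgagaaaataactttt
clone 2 TRA: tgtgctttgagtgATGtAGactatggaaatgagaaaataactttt
clone 1 TRB: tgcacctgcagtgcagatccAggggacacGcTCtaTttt
clone 2 TRB: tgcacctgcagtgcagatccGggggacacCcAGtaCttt
Over clonotypes, TRAV12-2 with TRAJ48 and TRBV1 was found in 2 expanded clonotypes with 14 Foxp3+ cells, in 1 single clonotype, and in 0 of 4765 Foxp3-negative tumor clonotypes. The single clonotype carried the alpha CDR3 of clone 1, and whether its cell is a sister of clone 1 was not tested.

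The second family shared a beta chain motif. Clones 7, 10 and 11 (5 cells each) and 14 (4 cells), all entirely Foxp3+, used TRBV3 (chr6:41048394-41048824) with TRBJ2-1 and carried the 8 bases in capitals at the junction. Clones 10, 11 and 14 paired this chain with TRAV6-6, each with another alpha J segment, and clones 10 and 11 had the same beta CDR3.
clone 7 TRB: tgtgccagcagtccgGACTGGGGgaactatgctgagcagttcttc
clones 10 and 11 TRB: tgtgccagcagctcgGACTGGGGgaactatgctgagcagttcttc
clone 14 TRB: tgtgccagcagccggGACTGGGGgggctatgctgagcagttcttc
TRBV3 with TRBJ2-1 and these 8 bases was in 10 of 107 (9.35%, 4.57% to 16.5%) expanded clonotypes and 15 of 628 (2.39%, 1.34% to 3.91%) single clonotypes. It was in 6 of 4765 (0.126%, 0.0462% to 0.274%) Foxp3-negative tumor clonotypes, and in 0 of 148 (0% to 2.46%) Foxp3+ normal-lung clonotypes. That upper limit is above the 2.39% of single clonotypes, so the 0 does not set normal lung apart from them. The 8 bases on their own were common, in 26 of 107 (24.3%, 16.5% to 33.5%) expanded, 76 of 628 (12.1%, 9.65% to 14.9%) single and 536 of 4765 (11.2%, 10.4% to 12.2%) Foxp3-negative tumor clonotypes, searched on the coding strand of the CDR3. In the same V and J segments, 3 nucleotide versions of the clone 10 chain encoded the same amino acids, differing at the base in capitals.
version A: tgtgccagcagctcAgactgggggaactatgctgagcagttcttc
version C: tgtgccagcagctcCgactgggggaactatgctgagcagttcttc
version G: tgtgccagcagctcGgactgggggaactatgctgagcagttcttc
Version A was in 1 clonotype of 1 cell, version C in 3 clonotypes with 4 Foxp3+ cells, and version G in clones 10 and 11 with 10 Foxp3+ cells. Over both sides, 24 sets of beta chains had the same V and J genes and the same amino acids through more than 1 nucleotide sequence.

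The third family shared an alpha chain across different beta chains. TRAV13D-2 (chr14:52942764-52943289) with TRAJ27 was in 10 of 107 (9.35%, 4.57% to 16.5%) expanded and 11 of 628 (1.75%, 0.878% to 3.11%) single clonotypes, and in 15 of 4765 (0.315%, 0.176% to 0.519%) Foxp3-negative tumor clonotypes. Identical alpha CDR3 sequences were shared by clones 3, 4 and 8 and, with the 2 of 39 bases in capitals different, by clones 13 and 17.
clones 3, 4 and 8 TRA: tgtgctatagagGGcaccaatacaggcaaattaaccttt
clones 13 and 17 TRA: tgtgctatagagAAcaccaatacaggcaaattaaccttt
The first of these was in 8 clonotypes with 21 Foxp3+ cells and 5 TRBV genes, and 4 of the 8 were expanded. The second was in 3 clonotypes with 10 Foxp3+ cells, all 3 expanded and with the same TRBV assignment. The beta chains paired with the first one differed in V gene, TRBV13-1 in clone 3, TRBV14 in clone 4 and TRBV12-2+TRBV13-2 (an ambiguous assignment in the deposited table) in clone 8, and in CDR3, shown with the first and last codon in capitals.
clone 3 TRB: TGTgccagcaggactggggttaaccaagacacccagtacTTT
clone 4 TRB: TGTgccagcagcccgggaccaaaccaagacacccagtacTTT
clone 8 TRB: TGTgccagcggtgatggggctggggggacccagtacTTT
The 3 families were picked after the largest clones had been seen, so their counts are a description.

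Of all V and J segments compared singly, only TRAV13D-2 and TRAJ27 had intervals that did not overlap between the sides. The intervals were not adjusted for the many segments compared. These segments make up the third family, picked after the largest clones had been seen, and 10 expanded clonotypes had both. TRAV13D-2 was in 13 of 107 expanded clonotypes (12.1%, 6.63% to 19.9%) and 26 of 628 single clonotypes (4.14%, 2.72% to 6.01%), and TRAJ27 in 15 of 107 expanded clonotypes (14.02%, 8.06% to 22.1%) and 36 of 628 single clonotypes (5.73%, 4.05% to 7.85%). For TRBV19, TRAJ37, TRBJ2-1 and TRBV5 the intervals overlapped. TRBV19 (chr6:41178589-41179048) was the most used beta V gene, in 31 of 107 expanded clonotypes (29.0%, 20.6% to 38.5%) and 112 of 628 single clonotypes (17.8%, 14.9% to 21.1%), against 8.12% of Foxp3-negative tumor clonotypes and 6.76% of Foxp3+ normal-lung clonotypes. TRAJ37 was in 19 of 107 expanded clonotypes (17.8%, 11.04% to 26.3%) and 57 of 628 single clonotypes (9.08%, 6.95% to 11.6%), and TRBJ2-1 in 20 of 107 expanded clonotypes (18.7%, 11.8% to 27.4%) and 66 of 628 single clonotypes (10.5%, 8.22% to 13.2%). TRBV5 had the lower share in expanded clonotypes, in 2 of 107 expanded clonotypes (1.87%, 0.227% to 6.59%) and 54 of 628 single clonotypes (8.60%, 6.53% to 11.1%). CDR3 length was alike on both sides: alpha 40.9 ± 3.38 nucleotides (SD over 125 chains) in expanded and 40.5 ± 3.69 (SD over 733 chains) in single clonotypes, and beta 41.6 ± 3.16 (SD over 107 chains) and 41.0 ± 3.94 (SD over 628 chains). A second productive alpha chain was in 16.0% (43 of 268, 11.9% to 21.0%) of expanded and 16.7% (105 of 628, 13.9% to 19.9%) of single cells.

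Among the sampled cells, clonal repetition was most frequent in Foxp3+ cells of tumor lung. In tumor lung 29.9% (268 of 896, 26.9% to 33.0%) of Foxp3+ kept cells were in clonotypes of 2 or more, against 1.98% (95 of 4809, 1.60% to 2.41%) of Foxp3-negative kept cells. In normal lung the shares were 5.96% (9 of 151, 2.76% to 11.01%) for Foxp3+ and 3.62% (192 of 5309, 3.13% to 4.15%) for Foxp3-negative kept cells. The interval of the Foxp3+ tumor cells overlapped none of the other 3. The chance of seeing a clone again also depends on how many cells were sampled, here 896 Foxp3+ cells in tumor and 151 in normal lung. The shares were not computed at equal cell numbers, so a difference in clonality between the tissues was not tested. The tumor library held 5479 clonotypes and the normal library 5338, with 0 in common, so no clonotype could be followed between the tissues.

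Clones were mostly small and mostly Foxp3+ throughout. Of the 107 expanded clonotypes, 68 held 2 kept cells (127 Foxp3+ cells), 19 held 3 (53 Foxp3+ cells) and 20 held 4 to 8 (88 Foxp3+ cells). Of the 137 tumor clonotypes of 2 or more kept cells, 107 (78.1%) held a Foxp3+ cell, and in 86 of those 107 (80.4%) every kept cell had a Foxp3 UMI. Within these clonotypes 91.5% (268 of 293, 87.7% to 94.4%) of kept cells had a Foxp3 UMI, and the other 25 cells are in neither side. Among kept tumor cells with naive markers (Ccr7 and Lef1, no Il2ra), 1.86% (66 of 3545, 1.44% to 2.36%) had a Foxp3 UMI, at a median depth of 4245 UMIs. These 66 cells are among the 896 Foxp3+ cells compared here, and whether their Foxp3 UMIs are background was not tested. Clone 6 had 3 Foxp3+ of 6 kept cells, clone 5 had 4 of 6 and clone 12 had 3 of 5. The barcodes of cells in the same clone differed at 5 or more bases (median 12) over 336 pairs.

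**Figure D1:**
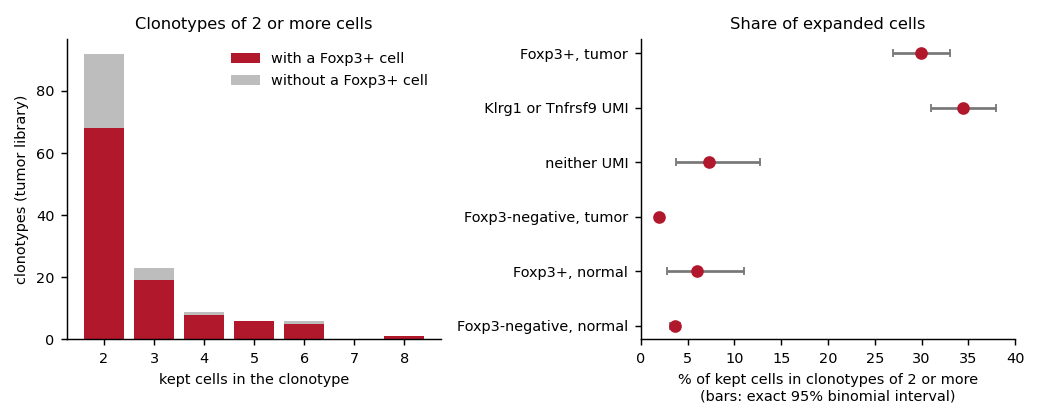
Left, number of tumor-lung clonotypes (y axis) by kept cells per clonotype (x axis), split into those with and without a Foxp3+ cell. Right, percent of kept cells in clonotypes of 2 or more for 6 cell populations with Clopper-Pearson 95% intervals, where Foxp3+ tumor cells stand at 29.9% and Foxp3-negative tumor cells at 1.98%.

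Both sides carried the Treg genes. Il2ra, the high-affinity IL-2 receptor chain, had UMIs in 80.6% of expanded and 65.1% of single cells, against 2.79% of Foxp3-negative kept tumor cells. Ctla4, the receptor that removes CD80 and CD86 from antigen-presenting cells, had UMIs in 97.0% of expanded and 91.7% of single cells, and Ikzf2 (Helios) in 92.9% of expanded and 76.9% of single cells. Ratios of expanded over single CPM were 1.34 (1.23 to 1.46) for Il2ra, 1.15 (1.10 to 1.21) for Ctla4, 1.23 (1.14 to 1.33) for Ikzf2 and 1.35 (1.28 to 1.43) for Tnfrsf18 (GITR). Foxp3 itself chose the cells, and its levels, 872 and 747 CPM, are only a description. Exactly 1 Foxp3 UMI was found in 40 of 268 expanded cells (14.9%) and 153 of 628 single cells (24.4%), the cells nearest the Foxp3 threshold.

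Depth was close at the centre and differed at the top. The 2 sides held 1423652 and 3511562 UMIs, with medians of 4849.5 and 4885.5 per cell, and medians of 2030.5 and 1960 detected genes. The 90th percentile was 7603 UMIs for expanded and 9100 for single cells, and the largest values were 15136 and 19884. Markers of other cells were sparse: NK and innate lymphoid markers had 0 UMIs in expanded and 1 in single cells, gamma-delta markers 0 and 2, and Cd8a 0 and 1. Lyz2, Adgre1, S100a8, S100a9, Krt8, Krt19, Cdh1, Col1a1, Col1a2, Dcn, Cdh5 and Ms4a1 were at 0 on both sides. Summed CPM of the 9 myeloid markers was 217 in expanded and 169 in single cells, nearly all of it Cst3, and of the 6 B cell markers 684 and 673, nearly all of it Ighm and Cd74. The 7 epithelial markers had 68 and 123 UMIs, of which Epcam had 55 and 106. Of the tested genes on these lists Cd79b was lower (0.535, 0.302 to 0.898, or 0.777 with expansion counted from 3 cells), and Cst3 (1.29, 1.12 to 1.49) and Epcam (1.28, 0.907 to 1.79) did not pass. Cd8b1 had a ratio of 1.61 (1.10 to 2.34), or 1.45 without its top clonotype, and 1.44 with each cell thinned to 1 UMI number. The libraries shared 86 barcodes, and 12 of the 896 cells, 3 of them expanded, had one of these.

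Gene comparisons used CPM of summed UMIs, and a gene was called when its ratio reached 1.5-fold in either direction. Of 5657 genes with at least 100 UMIs over both sides, 241 (4.26%) were higher and 163 (2.88%) lower in expanded cells, together 7.14%. With median-of-ratios scaling the split was 150 higher and 229 lower. The median log2 ratio over all genes tested was 0.08. The comparison was repeated among cells with a UMI of Klrg1, an inhibitory lectin receptor of terminally differentiated Tregs, or of Tnfrsf9 (4-1BB), a costimulatory receptor induced by TCR signals. These marker-positive cells were 95.9% (257 of 268, 92.8% to 97.9%) of expanded and 77.9% (489 of 628, 74.4% to 81.1%) of single cells. The share was 77.9% at clone size 1, 93.7% at 2, 96.2% at 3 and 98.9% at 4 to 8. Seen from the other side, 34.5% (257 of 746, 31.0% to 38.0%) of marker-positive Foxp3+ cells were in expanded clonotypes and 7.33% (11 of 150, 3.72% to 12.7%) of the rest. Thinned to 3102 UMIs per cell, with 20 expanded and 70 single cells too shallow, the shares were 97.2% and 71.9%.

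Among the 257 expanded and 489 single marker-positive cells, 5197 genes were tested, of which 121 (2.33%) were higher and 113 (2.17%) lower, together 4.5%. In this comparison 9 of 257 expanded cells (3.50%) and 69 of 489 single cells (14.1%) had exactly 1 UMI of Klrg1 and Tnfrsf9 together, and Klrg1 and Tnfrsf9 are no findings in it. Of the 241 genes higher in all cells 215 were tested among marker-positive cells, and of the 163 lower ones 122. Of the genes higher in all cells, 114 were also higher among marker-positive cells, which is 47.3% of the first list and 94.2% of the second. Of the lower genes, 89 were shared, 54.6% of the first list and 78.8% of the second. The median log2 ratio over all genes tested was 0.04. In the rest of the text a gene is called higher or lower in expanded cells only where it passed 1.5-fold. List counts stand beside the shares over all genes, 4.26% higher and 2.88% lower in all cells and 2.33% and 2.17% among marker-positive cells. A short list with 0 or 1 gene past 1.5-fold is near those shares and is no finding by itself. The genes on the lists and the named genes were also computed in up to 17 other settings for all cells and 18 for marker-positive cells. For some genes that failed 1.5-fold in any of them, the number of settings passed is given. For others only a failed setting is named, and calls lost are also listed in the closing section. A missing number therefore does not mean that a gene passed in every setting.

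The naive and lymph node homing program was lower in expanded Tregs. Of 16 listed genes 15 were tested, and 0 were higher and 13 lower, with a median log2 ratio of -1.57. Igfbp4 (chr11:99040005-99052655, GRCm38.p6), a secreted IGF-binding protein abundant in naive T cells, had 4 UMIs in expanded and 607 in single cells, a level 61.5-fold (23.9 to 226.5) lower in expanded cells. Tcf7 (chr11:52246527-52283383), which encodes the stem-like and naive T cell factor TCF-1, had 5 UMIs in expanded and 211 in single cells, 17.1-fold (7.22 to 53.2) lower. These low counts were spread over few expanded cells, with Igfbp4 UMIs in 4 and Tcf7 UMIs in 3 of the 268. The sizes also depended on how clonotypes were defined: with the beta chain alone Igfbp4 was 7.09-fold and Tcf7 7.02-fold lower, and with expansion counted from 3 cells they were 132-fold and 45.8-fold lower. With at least 2 UMIs required of every receptor contig, Tcf7 was 68.9-fold lower.

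Other genes of that list were lower by less. Klf2, the transcription factor that sustains S1pr1, had 94.8 CPM (79.5 to 112) in expanded and 304 CPM (286 to 323) in single cells, a ratio of 0.311 (0.258 to 0.373). S1pr1, the receptor for egress into blood and lymph, had a ratio of 0.336 (0.263 to 0.424). Satb1, Bach2, Il6ra, Klf3, Ly6c1 and Txk were also lower, Bach2 with a ratio of 0.240 (0.117 to 0.446), or 0.425 thinned, and Txk with 0.620 (0.450 to 0.841), or 0.678 among cells with at least 2 Foxp3 UMIs. The lymph node homing receptor gene Ccr7 had a ratio of 0.444 (0.392 to 0.501), and Lef1, the partner of TCF-1, 0.368 (0.294 to 0.458). Il7r, the IL-7 receptor, and Foxo1, which drives Il7r and Klf2, did not pass, with ratios of 1.03 (0.956 to 1.11) and 0.964 (0.838 to 1.11).

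Naive genes also mark naive conventional CD4 T cells, the most frequent Foxp3-negative cells of the library. Igfbp4 UMIs were in 72.8% of Foxp3-negative kept cells, 14.5% of single and 1.49% of expanded cells, and Tcf7 UMIs in 79.4%, 17.99% and 1.12%. The part of such cells among the single cells was not tested directly. Among cells with at least 2 Foxp3 UMIs, which leaves out those nearest to the threshold, 11 of 14 tested list genes were lower and 0 higher (median -1.20). There the log2 ratio was -4.87 for Igfbp4 and -3.43 for Tcf7, and the ratio was 0.409 for Klf2, 0.513 for Lef1 and 0.547 for Ccr7. Among marker-positive cells 9 of 13 tested list genes were lower and 0 higher (median -1.004), and Igfbp4 had 4 against 251 UMIs, 30.6-fold (11.8 to 113) lower. With clonotypes from the beta chain alone Igfbp4 was 3.34-fold and Tcf7 4.14-fold lower among marker-positive cells.

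Beside Igfbp4 and Tcf7, the genes with the smallest ratios over the whole table were Ly6c1 (17.1-fold lower, 6.57 to 63.6), Plaur, the urokinase receptor (16.5-fold, 6.33 to 61.4), Nsg2 (16.3-fold, 6.25 to 60.6), Rflnb (15.2-fold, 5.82 to 56.5), Tnfsf8, the CD30 ligand (13.1-fold, 4.98 to 48.7), and Evl, an actin regulator (8.60-fold, 4.44 to 19.1). St6gal1, a sialyltransferase (7.95-fold, 3.29 to 25.02), Cd7 (6.22-fold, 3.18 to 13.9) and Klf3 (6.06-fold, 3.65 to 10.8) followed. With clonotypes from the beta chain alone Plaur was 6.20-fold, Nsg2 8.11-fold, Rflnb 6.81-fold and St6gal1 3.33-fold lower. With expansion counted from 3 cells Ly6c1 was 9.17-fold, Plaur 35.4-fold and Nsg2 34.9-fold lower. Gm45552 had 0 UMIs in expanded and 102 in single cells, and against a floor of 3 counts it was 13.8-fold lower. That size rests on the floor and is not a lower limit. Gm45552 was 8.52-fold lower with at least 2 Foxp3 UMIs, 8.30-fold with thinned cells and 7.38-fold with expansion counted from 3 cells. Its log2 ratio ran from -4.11 to -2.88 over the settings, against -3.78 as reported. Ly6c1 has the near-identical neighbour Ly6c2, and reads of the 2 genes can be split by counting. The share of Foxp3-negative kept cells with a UMI of these genes ran from 15.2% for Tnfsf8 to 79.4% for Tcf7. Among marker-positive cells the named lower genes were Igfbp4, Plaur, Tcf7, Cd7 and Klf3 again, and Trib2 (0.274, 0.165 to 0.433), Ms4a4c (0.331, 0.198 to 0.527) and Ifngr2, the interferon-gamma receptor signalling chain (0.367, 0.213 to 0.602). There Plaur was 4.78-fold lower with clonotypes from the beta chain alone, and with both Klrg1 and Tnfrsf9 required Cd7 was 3.39-fold lower and Ms4a4c had a ratio of 0.715.

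The 3 genes with the largest ratios had UMIs in few expanded cells. Hip1 (chr5:135406496-135545323), a clathrin adaptor, had 70 UMIs in expanded and 53 in single cells, or 49.2 CPM (38.3 to 62.1) in expanded and 15.1 CPM (11.3 to 19.7) in single cells, a ratio of 3.26 (2.25 to 4.75), with UMIs in 20.1% of expanded and 7.32% of single cells. Wisp1, a secreted matricellular protein of the CCN family, had a ratio of 3.11 (2.11 to 4.599), with UMIs in 16.4% of expanded and 6.53% of single cells. Frmd5, a FERM domain protein, had a ratio of 2.93 (2.17 to 3.96), with UMIs in 19.4% of expanded and 9.24% of single cells. Among Foxp3-negative kept cells 0.686% had a UMI of Hip1, 0.187% of Wisp1 and 0.208% of Frmd5.

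Nkg7 (chr7:43437138-43438246), a cytotoxic granule protein, had 163 CPM (143 to 185) in expanded and 66.9 CPM (58.6 to 76.0) in single cells, a ratio of 2.44 (2.02 to 2.93). Of its 232 UMIs in expanded cells 41 came from clone 6, and the ratio was 2.02 without that clone. Cxcl2, a neutrophil-attracting chemokine, had a ratio of 2.90 (2.24 to 3.76), with 27 of 134 UMIs in 1 clonotype, and 2.33 without it. Its ratio among cells with at least 2 Foxp3 UMIs was 1.76. Mt1, a metal-binding metallothionein, had 504 CPM (468 to 543) in expanded and 216 CPM (201 to 232) in single cells, a ratio of 2.34 (2.11 to 2.59), and was found in 53.4% of expanded and 28.0% of single cells.

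The other named higher genes were Ccdc184 (2.60, 1.78 to 3.80), Gm4858 (2.55, 1.77 to 3.67, or 3.94 with expansion counted from 3 cells), AA467197 (2.40, 2.02 to 2.86), Pcyt1a, an enzyme of phosphatidylcholine synthesis (2.39, 1.97 to 2.89), Slc2a8, a glucose transporter (2.38, 1.61 to 3.52), and Cystm1 (2.28, 1.65 to 3.17). Pcyt1a was the most widely found of these, with UMIs in 43.3% of expanded and 21.8% of single cells. Among marker-positive cells the 8 genes with the largest ratios were Hip1 (2.81), Wisp1 (2.59), Cxcl2 (2.41), Frmd5 (2.40), Nkg7 (2.20), Gm4858 (2.15), Socs2 (2.13) and Ccdc184 (2.12). With UMIs of both Klrg1 and Tnfrsf9 required, a check added after seeing the data, the ratio was 2.06 for Hip1, 3.23 for Wisp1, 2.29 for Frmd5 and 2.30 for Nkg7, and AA467197, Cystm1 and Mt1, called among marker-positive cells, were no longer past 1.5-fold.

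**Figure D2:**
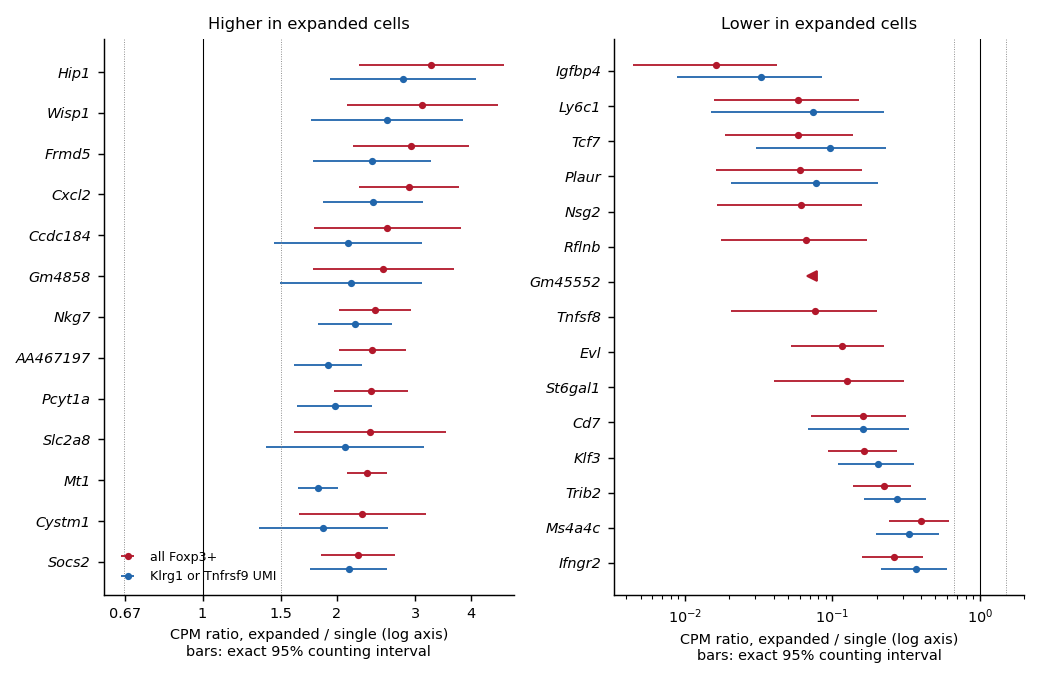
Ratio of expanded over single CPM (log x axis) for the genes named as higher (left) and lower (right), in all Foxp3+ cells (red) and in marker-positive cells (blue), with exact 95% counting intervals and dotted lines at 1.5-fold. The left-pointing triangle for Gm45552 is the ratio with 3 counts in place of the 0 UMIs of expanded cells. A gene under 100 UMIs in marker-positive cells has no blue point. Hip1 is the highest, at 3.26, and Igfbp4 the lowest.

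Most tested inhibitory receptors were higher in expanded Tregs. Of 12 listed genes 10 were tested, and 6 were higher and 0 lower, with a median log2 ratio of 0.69. Pdcd1 (chr1:94038305-94052553), which encodes PD-1, had 839 CPM (792 to 888) in expanded and 425 CPM (404 to 448) in single cells, a ratio of 1.97 (1.83 to 2.13), with UMIs in 84.3% of expanded and 53.8% of single cells. The ratios were 2.07 (1.68 to 2.57) for Lag3, an MHC class II receptor, 1.74 (1.30 to 2.33) for Havcr2 (TIM-3), 1.61 (1.52 to 1.71) for Tigit, a receptor for the nectin family, 1.62 (1.21 to 2.15) for Cd200r1 and 1.91 (1.73 to 2.11) for Klrg1. Havcr2 was at 1.33 with each cell thinned to 1 UMI number, and Cd200r1 passed in 15 of 17 other settings. Ctla4 and Cd96 did not pass upward, at 1.15 (1.10 to 1.21) and 0.718 (0.509 to 0.995).

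Among marker-positive cells 3 of the 10 were higher and 0 lower, with a median of 0.49. These were Pdcd1 (1.69, 1.56 to 1.82), Lag3 (1.79, 1.44 to 2.23) and Klrg1, which chose these cells, while Havcr2 and Tigit had 1.43 (1.06 to 1.93) and 1.37 (1.29 to 1.46). Pdcd1 was at 1.48 with thinned cells and 1.48 with exactly 1 alpha chain, and passed in 15 of 18 other settings, as did Klrg1. With both markers required, Pdcd1 had a ratio of 1.40 and Lag3 1.76.

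Suppressive effector molecules moved in part. Of 14 genes 4 were higher and 0 lower (median 0.41), and among marker-positive cells 2 were higher and 0 lower (median 0.23). Fgl2, a secreted fibrinogen-like inhibitor of T cells and dendritic cells, had 435 CPM (401 to 470.4) in expanded and 206 CPM (191 to 222) in single cells, a ratio of 2.11 (1.89 to 2.35), with UMIs in 71.3% of expanded and 42.4% of single cells. The chemokine Ccl5 had 904 CPM (855 to 955) in expanded and 407 CPM (386 to 429) in single cells, a ratio of 2.22 (2.06 to 2.40). Il10, the anti-inflammatory cytokine, had a ratio of 1.64 (1.25 to 2.15) and Itgb8, the integrin chain that releases active TGF-beta, 1.55 (1.14 to 2.09). Without the clonotype holding most of their UMIs these 2 were at 1.5, below the threshold before rounding, and 1.47. Il10 passed in 13 of 17 other settings and Itgb8 in 11, with their smallest ratios, 1.31 and 1.32, with expansion counted from 3 cells and with thinned cells. Gzmb (1.33, 1.22 to 1.45), Areg (1.26, 1.14 to 1.39), which encodes the repair factor amphiregulin, and Tgfb1 (1.17, 1.05 to 1.31) did not pass.

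The list for tissue Tregs and the IL-33 response had 4 of 17 tested genes higher and 0 lower (median 0.42), and 2 and 0 among marker-positive cells (median 0.24). Ccr8, a chemokine receptor of tumor and tissue Tregs, had 845 CPM (798 to 894) in expanded and 485 CPM (462 to 508) in single cells, a ratio of 1.74 (1.62 to 1.88), with UMIs in 82.1% of expanded and 59.6% of single cells. Klrg1, Maf (1.54, 1.34 to 1.77) and Irf4 (1.53, 1.12 to 2.06), both transcription factors of effector Tregs, were the others, and among marker-positive cells Irf4 (1.55, 1.13 to 2.13, or 1.39 without its top clonotype) and Klrg1, which chose those cells. In all cells Maf and Irf4 were at 1.47 and 1.37 without their top clonotype. They passed in 9 and 8 of 17 other settings, and Irf4 in 11 of 18 among marker-positive cells. With expansion counted from 3 cells the ratio of Irf4 was 1.05 and 1.07.

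Il1rl1 (chr1:40404864-40465418), the gene for the IL-33 receptor ST2, did not pass. It had 76 UMIs in expanded and 148 in single cells, or 53.4 CPM (42.1 to 66.8) in expanded and 42.1 CPM (35.6 to 49.5) in single cells, a ratio of 1.27 (0.948 to 1.68), with UMIs in 15.3% of expanded and 14.2% of single cells. Among cells with an Il1rl1 UMI 31.5% (41 of 130, 23.7% to 40.3%) were in expanded clonotypes, against 29.6% (227 of 766, 26.4% to 33.0%) of cells without one, so a difference in expansion by ST2 transcript was not detectable at this depth. Gata3 (1.34, 1.19 to 1.51) and Rora (1.30, 1.18 to 1.42), transcription factors linked to ST2+ tissue Tregs, did not pass either, and neither did Batf (1.01, 0.878 to 1.16) or Itgae (1.08, 0.920 to 1.27).

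Th1 and cytotoxic genes were detected in few members of their list. Of 14 genes 6 had enough UMIs, and 3 of these were higher and 0 lower in all cells (median 0.68) and in marker-positive cells (median 0.51). Beside Ccl5 and Nkg7 the higher gene was Cxcr6, a receptor of tissue-resident cells, with a ratio of 2.03 (1.46 to 2.82), and among marker-positive cells 1.72 (1.23 to 2.40), or 1.38 without its top clonotype. With clone size counted over Foxp3+ cells only, Cxcr6 was at 1.42 in all and 1.19 in marker-positive cells, where it passed in 14 of 18 other settings. Cxcr3, the receptor for interferon-induced chemokines, had 1.27 (1.11 to 1.44). Tbx21, the Th1 master regulator, stayed under the filter with 40 UMIs in expanded and 43 in single cells. Of 10 Th17 genes 2 were tested: Ltb4r1, the leukotriene B4 receptor, was higher (1.84, 1.502 to 2.25) and Ccr6 lower (0.474, 0.329 to 0.668). Among marker-positive cells Ccr6 passed in 16 of 18 other settings.

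Costimulatory and adhesion genes gave mixed results. In the TNF receptor family 1 of 10 tested genes was higher and 0 lower (median 0.30), Tnfrsf9 at 1.67 (1.58 to 1.76), while Tnfrsf4 (OX40) had 1.35 (1.29 to 1.42). Among 8 tested, 0 passed among marker-positive cells (median 0.25). Of 12 chemokine receptors tested 2 were higher and 3 lower (median -0.04), Ccr8 and Cxcr6 against Ccr7, Ccr6 and S1pr1. Of 14 integrin and adhesion genes 3 were higher and 2 lower (median 0.09). Itgb3 (1.88, 1.44 to 2.45), Itgb8 and Alcam (1.72, 1.14 to 2.57), a ligand of CD6, were higher, and Itgb1 (0.595, 0.467 to 0.752) was among the lower ones. Itgb1 passed in 15 of 17 other settings, and in 13 of 18 among marker-positive cells. Alcam was at 1.47 without cells of over 10000 UMIs.

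Genes that respond to TCR signals were partly higher, while the receptor complex was level. Of 16 tested response genes 5 were higher and 0 lower (median 0.21), and 3 and 0 among marker-positive cells (median 0.13). The 5 were Nr4a2, an orphan nuclear receptor (1.64, 1.39 to 1.94), Egr1 (1.53, 1.31 to 1.78) and its partner Nab2 (1.56, 1.14 to 2.12), Irf4 and Tnfrsf9. The 3 among marker-positive cells were Nr4a2, Egr1 and Irf4, at 1.49, 1.45 and 1.39 without the top clonotype of each. In all cells Egr1 was at 1.41 without its top clonotype. In all cells Egr1 passed in 7, Nab2 in 13 and Nr4a2 in 16 of 17 other settings, and among marker-positive cells Egr1 in 11 and Nr4a2 in 14 of 18. Nr4a1 (1.16, 1.09 to 1.23), Cd69 (0.986, 0.889 to 1.09) and Myc (1.00, 0.725 to 1.38) did not pass. Of the 14 genes of the TCR complex and proximal signalling 0 were higher and 0 lower (median 0.05), and of 13 immediate early and dissociation genes 0 and 0 (median -0.03).

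IL-2 and survival genes changed at single members. Of 12 genes of IL-2 and STAT5 signalling 1 was higher and 1 lower (median -0.03). Socs2, a feedback inhibitor induced by STAT5, had 148 CPM (128 to 169) in expanded and 66.1 CPM (57.8 to 75.1) in single cells, a ratio of 2.23 (1.84 to 2.70), and 2.13 (1.75 to 2.60) among marker-positive cells. Bcl2, the anti-apoptotic gene, was lower at 0.285 (0.191 to 0.412), while its relatives Bcl2a1d (1.78, 1.46 to 2.17) and Bcl2a1b (1.53, 1.33 to 1.75) were higher, so that 2 of 10 survival genes were higher and 1 lower (median 0.28). Among marker-positive cells Bcl2a1d was at 1.52, or 1.48 without its top clonotype, and Bcl2 at 0.420, or 0.635 with exactly 1 alpha chain. The Bcl2a1 genes are near-identical copies whose reads can be split by counting, and Bcl2a1b was at 1.49 without its top clonotype. Bcl2a1b passed in 9 of 17 other settings, and Bcl2a1d in 9 of 18 among marker-positive cells.

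A few interferon-stimulated genes on the list were lower in expanded Tregs. Over all genes tested 4.26% were higher and 2.88% lower, and 2.33% and 2.17% among marker-positive cells. Of 21 listed genes 0 were higher, which is near those shares, and 3 lower (median -0.26), and 0 and 5 among marker-positive cells (median -0.38). The 3 were Gbp2, an interferon-induced GTPase (0.599, 0.478 to 0.745), Slfn5 (0.568, 0.411 to 0.770) and Oasl2 (0.649, 0.457 to 0.906), the last at 0.674 without its top clonotype. Ifit3 (0.637, 0.536 to 0.754) and Ifit3b (0.609, 0.425 to 0.857) were added among marker-positive cells, where Ifit3 was at 0.697 without its top clonotype. The Ifit3 genes are also near-identical copies. Oasl2 passed in 13 and Slfn5 in 15 of 17 other settings. Among marker-positive cells Ifit3 passed in 14, Ifit3b in 15, and Oasl2 and Slfn5 each in 17 of 18.

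Cell cycle genes gave little difference between the sides. Of 20 genes 9 were tested, with 0 higher and 1 lower (median -0.14), Tuba1b, a tubulin (0.636, 0.499 to 0.804, or 0.717 without its top clonotype), which passed in 11 of 17 other settings. Mki67, a marker of cycling cells, had UMIs in 9.70% of expanded and 8.12% of single cells with a ratio of 1.18 (0.773 to 1.78), and Top2a in 8.21% of expanded and 9.55% of single cells with a ratio of 0.865 (0.536 to 1.36). None of the tested genes passed in the lists for NF-kB (12 genes, median 0.08), MHC class I (14, median 0.18), glycolysis (11, median 0.01) and S100, annexin and galectin genes (13, median 0.19). In the Treg identity list 1 of 11 was higher and 0 lower (median 0.34), namely Socs2, which 2 lists share. With both Klrg1 and Tnfrsf9 required, Fgl2, Irf4, Ltb4r1, Ccr6, S1pr1, Itgb1, Ms4a4c, Gbp2, Ifit3 and Ifit3b, all called among marker-positive cells, were no longer past 1.5-fold. Pecam1 was the 1 tested gene of the endothelial and stromal list and was lower, with 41 UMIs in expanded and 236 in single cells, a ratio of 0.429 (0.300 to 0.599).

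**Figure D3:**
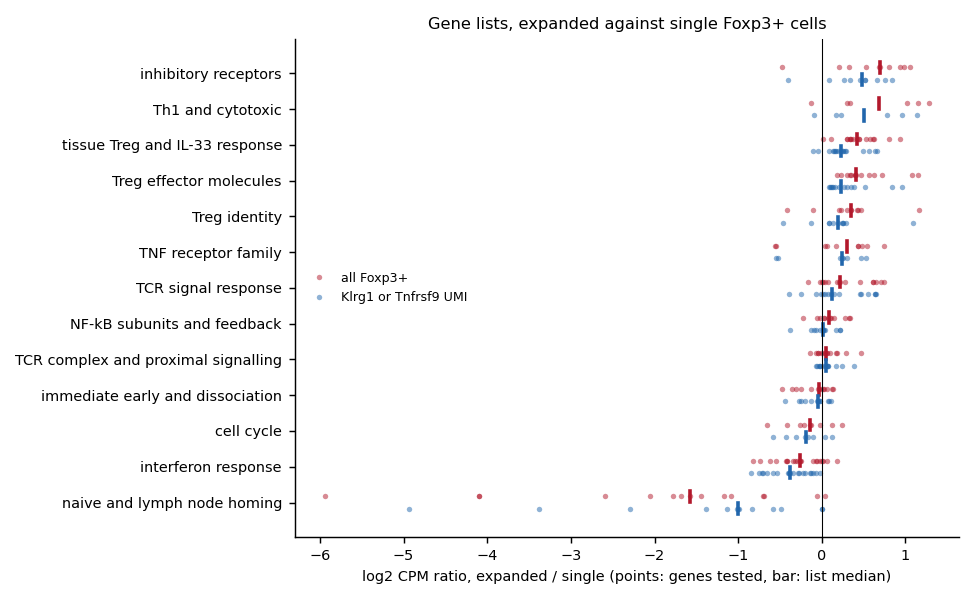
Log2 ratio of expanded over single CPM (x axis) for the tested members of 13 gene lists (y axis), in all Foxp3+ cells (red) and marker-positive cells (blue), each point a gene and each bar the list median. In all cells the naive and lymph node homing list sits lowest (median -1.57) and the inhibitory receptors highest (0.69).

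Levels at clone sizes 1, 2, 3 and 4 to 8 showed whether the change was already present in pairs. The sums came from 628, 127, 53 and 88 Foxp3+ cells. Pdcd1 had 425, 806, 958 and 812 CPM in that order, and Tnfrsf9 971, 1518, 1988 and 1533 CPM. Both were higher at size 2 than at size 1 and had no further order above it. Klf2 had 304, 106, 98.9 and 76.7 CPM, and Igfbp4 173, 4.54, 0 and 2.13 CPM. Igfbp4 was thus near 0 from clonotypes of 2 cells on.

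Socs2 had 66.1, 116 (91.9 to 146), 157 (115 to 209) and 185 (149 to 229) CPM, a larger value at each larger size. The interval at size 3 overlapped those at 2 and at 4 to 8. Without clone 2 the level at 4 to 8 was 164 CPM (128 to 207), which also overlapped size 2. The share of cells with a Socs2 UMI was 23.9%, 33.1%, 43.4% and 42.0%, so it did not rise from size 3 to 4 to 8. Nkg7 had 66.9, 127, 171 and 209 CPM, but 41 of its 98 UMIs at 4 to 8 came from clone 6, and the level there was 125 CPM (94.7 to 162) without it. The share of cells with an Nkg7 UMI was 11.5%, 22.8%, 20.8% and 23.9%, so Nkg7 was higher from size 2 on with no further order. Ccr7 had 497, 197, 246 and 239 CPM, the last at 158 CPM without clone 8. Fgl2 had 206, 434, 358 and 484 CPM and Hip1 15.1, 40.8, 58.0 and 55.4 CPM, both higher at every size from 2 than at 1 but without a steady order.

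Il1rl1 had 42.1, 42.3, 68.2 and 59.7 CPM, with the first pair of values nearly equal. Areg had 345, 635, 379 and 189.7 CPM, highest in pairs and lowest in the largest clones. The interferon genes Cxcl10, with 362, 93.7, 51.2 and 345 CPM, and Ifit3, with 179, 109, 47.7 and 219.6 CPM, were lowest at size 3 and came back at 4 to 8, where Cxcl10 was at 231 CPM without clone 1. The values at 4 to 8 without the clone that held most of a gene's UMIs were added after seeing the data. In normal lung, the 151 Foxp3+ kept cells had 83.5 CPM of Pdcd1, 131 of Tnfrsf9, 15.2 of Fgl2, 1365 of Klf2, 252 of Igfbp4 and 38.0 of Il1rl1, and Hip1 was at 0 UMIs there. For Pdcd1, Tnfrsf9, Fgl2 and Klf2 the single cells of tumor lung lay between normal-lung Foxp3+ cells and expanded tumor cells. With 1 library per tissue, tissue and library cannot be told apart.

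**Figure D4:**
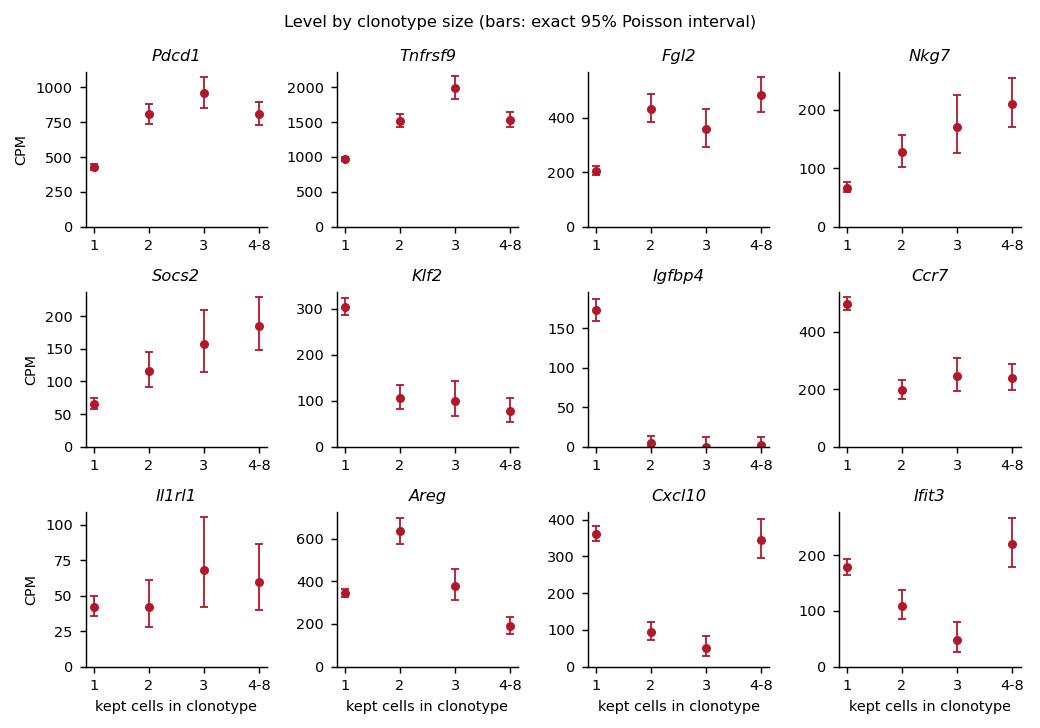
CPM (y axes) of 12 genes in Foxp3+ tumor-lung cells by kept cells in the clonotype (x axes), with exact 95% Poisson intervals that cover counting error only. Pdcd1 goes from 425 CPM at size 1 to 806 at size 2, and Igfbp4 from 173 to 4.5.

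The 20 clones of 4 or more kept cells differed widely in the same genes. Tnfrsf9 ran from 317 to 4828 CPM with a median of 1359, and Pdcd1 from 41.9 to 1615 CPM with a median of 907, highest in clone 10, where 5 of 5 cells had a UMI. Ccl5 ran from 58.9 to 3463 CPM with a median of 757, highest in clone 6. Nkg7 was at 0 in 12 of the 20 clones and reached 3155 CPM in clone 6, where 2 of 3 Foxp3+ cells had UMIs. In clone 1 all 8 cells had UMIs of Nkg7, and all 8 had UMIs of Cxcr3. Plac8 ran from 28.1 to 2527 CPM with a median of 491, highest in clone 13.

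Il1rl1 was at 0 in 10 of the 20 clones and highest in clone 12, from 6 UMIs in 1 cell. Areg was at 0 in 6. Igfbp4 and Tcf7 were each at 0 in 19 of the 20, the exceptions being 1 UMI each in clones 15 and 20. Each of these clones is a sum of 3 to 8 Foxp3+ cells, and a level of 0 is a statement about few UMIs.

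**Figure D5:**
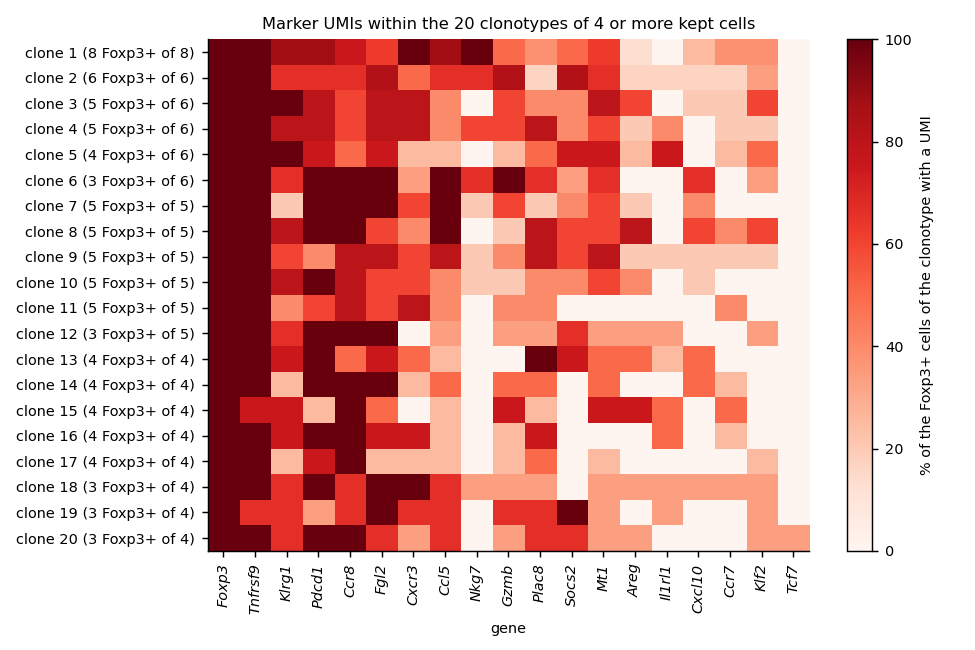
Percent of the Foxp3+ cells of a clonotype with a UMI (color scale) for 19 genes (x axis) in the 20 clonotypes of 4 or more kept cells (y axis). Nkg7 is in 8 of 8 cells of clone 1 and in none of 12 clones, and Tnfrsf9 is in all 20 clones.

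Whole expression profiles set sister cells little apart from other expanded cells. With each cell thinned to 3102 UMIs, the median correlation over 6005 genes was 0.372 for 243 pairs within expanded clonotypes, 0.366 for 30385 pairs from different expanded clonotypes and 0.352 for 155403 pairs of single cells. The first pair of interquartile ranges overlapped, 0.357 to 0.388 and 0.351 to 0.381. The pairs share cells and a library, so these are descriptions. For single genes, among pairs with at least 1 positive cell, Nkg7 was positive in both cells in 23.9% (22 of 92) within clonotypes and 10.1% (1059 of 10436) between them, and Ccl5 in 45.2% (80 of 177) within clonotypes and 29.9% (6475 of 21673) between them. Cxcr3 gave 36.3% (62 of 171) within clonotypes and 26.9% (5503 of 20446) between them, and Socs2 26.9% (35 of 130) within clonotypes and 16.7% (2521 of 15098) between them. Klrg1 gave 37.2% (70 of 188) within clonotypes and 35.7% (8445 of 23654) between them, and Il1rl1 2.13% (1 of 47) within clonotypes and 6.04% (405 of 6710) between them. In these pooled pairs joint detection was more frequent within clonotypes for Nkg7, Ccl5, Cxcr3 and Socs2, and not for Klrg1 or Il1rl1. Larger clones give more of the pairs, and every cell of clone 1, the largest, had UMIs of Nkg7 and Cxcr3. The shares without clone 1 were not computed, so they may rest on few clones.

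The same division was made among Foxp3-negative tumor cells as a reference, with 70 cells in 30 repeated clonotypes that held no Foxp3+ cell and 4714 single cells. There 25.6% of 8503 genes were higher and 17.6% lower, together 43.1%, with a median log2 ratio of 0.14. The naive list again had 0 genes higher and 13 of 16 lower (median -2.03), and inhibitory receptors had 6 of 8 higher (median 2.0). Interferon genes gave 20 of 21 higher (median 1.80), where Foxp3+ cells gave 0 of 21. The share of all tested genes that were higher was 25.6% in this contrast and 4.26% in Foxp3+ cells. With 1 library the difference between the 2 contrasts has no test, and the naive markers Ccr7 and Lef1 had UMIs in 81.9% and 85.3% of Foxp3-negative kept cells.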

How the data were processed

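Gene expression and TCR libraries of sorted CD4+ T cells from tumor-bearing lung and normal lung were used, 1 of each kind per tissue. The deposited matrices gave unnormalized UMI counts for each gene in each barcode, already limited to called cells. They were made with Cell Ranger on mm10 per the submitters' processing notes, with software version 3.1.0 per the file headers. The deposited TCR tables held contigs with chain, V and J genes, CDR3, and UMI and read counts, per the file headers, and the assembler version was not given in the sources used here. The tumor library held 35633167 UMIs (median 4210 per barcode) and the normal library 31697386 (median 3949), and their TCR libraries 131798 and 127035 contig UMIs. Of 31053 gene identifiers, 30934 were in a RefSeq-based name table, and coordinates were matched by symbol in GRCm38.p6, the assembly that mm10 denotes.

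Doublets were treated only through the receptors, by leaving out barcodes with over 2 productive alpha or over 1 productive beta chain, 533 in the tumor and 602 in the normal library. No doublet caller was run.

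UMI counts were summed per side and scaled to CPM by all UMIs of the side. A gene was tested at 100 or more UMIs over both sides and called at 1.5-fold. Where a side had 0 UMIs, 3 counts were used as a floor. With 1 library per tissue there was no statistical test and no p-value. Named genes were those at both ends of the ratio, 12 per direction in all Foxp3+ cells and 8 per direction among marker-positive cells, with UMIs in at least 10 clonotypes of the higher side. Receptor and immunoglobulin segments and mitochondrial, ribosomal, hemoglobin and sex-linked marker genes were not eligible. To these came the members of 28 lists (319 genes, all found in the files), of which 1 is counted in its lists but not reported here. Of the genes tested, 34 were receptor segments, 19 of them past 1.5-fold, which the definition of a clonotype can set. Members and lists were chosen with earlier results of these data known, so the lists give no independent support. The ratio calculation was tested on simulated data. Alternatives changed the clonotype definition, cell limits, scaling, depth and filter. Python 3.11.15, numpy 2.4.6, scipy 1.17.1, pandas 2.3.3 and matplotlib 3.10.9 were used.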

Additional observations from a re-analysis of the deposited data

How the results depend on the processing

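No paired analysis was possible because each tissue had 1 library and both sides came from the same one. The share of Foxp3+ kept cells in expanded clonotypes was 35.3% with clonotypes from the beta chain alone and 18.3% with expansion counted from 3 cells and pairs left out, against 29.9% as reported, and stayed within its interval in the other 9 settings. Counts of genes past 1.5-fold were 799 higher and 676 lower in all cells, and 652 and 586 among marker-positive cells, with a filter of 20 UMIs. With each cell thinned to 3102 UMIs they were 145 higher in all cells and 64 higher and 60 lower among marker-positive cells, where fewer genes reached the filter. Median-of-ratios scaling gave 150 higher in all cells, and scaling without receptor, ribosomal and mitochondrial genes 151. Requiring both Klrg1 and Tnfrsf9 gave 49 higher and 44 lower among marker-positive cells. That setting, leaving out cells of over 10000 UMIs and leaving out the top clonotype of each gene were added after seeing the data. The other 27 gene counts in all cells and 28 among marker-positive cells were within 1.5 times of those reported. Similar counts did not mean the same genes. Among marker-positive cells, 158 genes were higher with expansion counted from 3 cells, and 63 of these were among the 121 reported. With exactly 1 alpha chain 68 of 109 were, and with clonotypes from CDR3 amino acids 108 of 122. Of the list medians recomputed, 664 stayed close to the reported ones and 12 moved, and no named or list gene past 1.5-fold changed direction. There were 118 log2 ratios recomputed, each of a named or list gene in all cells or among marker-positive cells. Of their values in other settings, 1962 stayed close to the reported ones and 92 moved. Calls lost in all Foxp3+ cells were Bcl2a1b, Egr1, Irf4, Itgb8, Maf and Nab2 with either other scaling; Cd200r1, Il10, Irf4, Maf, Nab2, Tuba1b and Txk with at least 2 Foxp3 UMIs; Bcl2a1b, Cd8b1, Egr1, Havcr2, Itgb8, Maf, Nab2 and Tuba1b with thinned cells. They were Bcl2a1b, Cd8b1, Egr1, Il10, Irf4, Maf, Oasl2 and Slfn5 with the beta chain alone, and Cd79b, Il10, Irf4, Maf, Nr4a2, Oasl2 and Slfn5 with expansion from 3 cells. Clone size over Foxp3+ cells lost Cxcr6, Egr1 and Irf4, exactly 1 alpha chain Bcl2a1b, Irf4, Itgb1 and Tuba1b, equal weights per clonotype Cd200r1, Egr1, Itgb1 and Tuba1b, and contigs of at least 2 UMIs Egr1 and Itgb8. Leaving out shared barcodes lost Bcl2a1b, Egr1, Irf4 and Oasl2, and leaving out cells of over 10000 UMIs Alcam, Bcl2a1b, Egr1, Itgb8, Maf and Tuba1b. Among marker-positive cells, beside the losses named with both markers required, Bcl2a1d, Ccr6, Cxcr6, Egr1, Ifit3, Ifit3b, Irf4, Itgb1, Klrg1, Nr4a2, Oasl2, Pdcd1 and Slfn5 were lost in 1 or more settings. Depth limits genes such as Il1rl1, at 76 UMIs in expanded cells, and Tbx21, at 40.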
